A study of Mus musculus with 19 samples.

Results

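The integrins and the main proteins of focal adhesions are described here in abdominal aortas of mice infused with angiotensin II (AngII). They are 40 of the 55414 genes in the count files, 26 integrin chains and 14 focal adhesion proteins, taken by gene symbol and not by any measured value. The chains were sorted by known partner and ligand into 8 leukocyte integrins, 8 platelet and RGD-binding integrins, 4 collagen-binding integrins, 4 laminin-binding integrins and 2 others, Itga9 and Itgb1.

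Integrins are membrane receptors made of an alpha and a beta chain that tie a cell to matrix proteins or to other cells. Inside the cell, talins and kindlins switch them on, and a plaque of adaptor proteins, the focal adhesion, links them to actin. In arteries smooth muscle cells hold on to matrix with them, whereas the chains that pair with Itgb2 serve the adhesion and migration of white blood cells.

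All mice were males lacking apolipoprotein E (Apoe-/-) on a C57Bl/6J background, and all received AngII from an osmotic pump implanted at 8 to 10 weeks of age, so no group was free of AngII. D-3 IR mice received 1 Gy of X-rays to the whole body 3 days before AngII (7 libraries, numbered 10 to 16). D+1 IR mice received it 1 day after the start of AngII (7 libraries, numbered 1, 2, 3, 17, 18, 19 and 20). Control mice had the anesthesia but no irradiation (5 libraries, numbered 4, 5, 6, 8 and 9). Poly(A) RNA of abdominal aortas was sequenced, and the description of the sequencing does not itself give the day of collection, though mice for tissue analyses were killed on day 7 of AngII. Each library is a separate sample in the labels, and p-values measure the spread between these samples.

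The libraries held 25839001 to 97083681 counts in genes (median 39641963), and several stood apart in what the aortas brought along. Smooth muscle markers (7 genes, none at 0) summed to 9420 to 24636 CPM (counts scaled to a common library total) in D-3 IR, 1232 to 16322 CPM in D+1 IR and 5484 to 28912 CPM in control libraries, with D+1 IR 3 lowest and control 6 highest. D-3 IR 10 had the most skeletal muscle and B cell RNA (6303 CPM over 7 markers and 382 CPM over 4), D+1 IR 17 and control 8 the most sympathetic and adrenal RNA (2627 and 3132 CPM over 4 markers), and control 9 the most neutrophil RNA (914 CPM over 5 markers). The files of D+1 IR 1, 2 and 3 carry another series number than all others. No D-3 IR or control library carries that number, while D+1 IR 17 to 20 share theirs with all libraries of the other groups, so values are also given without D+1 IR 1, 2 and 3.

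How a gene overlaps its neighbours set how many of its reads were counted. Reads that fit more than 1 gene were left out by the counting used here, and 49.9% to 50.1% of the strand-assigned counts lay on the second strand, so genes on opposite strands could not be separated. Ilk, which encodes integrin-linked kinase, an adaptor to actin (chromosome 7, 105736592 to 105742925 of GRCm38), shares 89.7% of its exon bases with Taf10 on the other strand and kept 778 of 251415 strand-specific counts (0.309%). Vcl, the gene of the actin-binding adaptor vinculin (chromosome 14, 20929398 to 21033676), kept 37.7% beside Ap3m1 (12.4% in D+1 IR 20 to 51.1% in D-3 IR 13), and Itga4 64.3% beside Cerkl. The strand-specific counts of these genes also hold reads of their partners. Itgam and Itga10 share 68.7% and 33.5% of their exon bases with another gene model on the same strand, and their levels are uncertain to that extent. The level of Ilk is not compared with other genes, and levels are compared between genes as CPM per kilobase of exon that no other gene shares (CPM per kb).

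Of the beta chains, Itgb1 (chromosome 8, 128685654 to 128733200), the partner of most alpha chains, was the most abundant in each library at 308 ± 144 CPM per kb (SD, n = 19). Itgb5, a vitronectin receptor chain, followed in each library at 133 ± 73.6 CPM per kb. These 2 chains made up 63.2% ± 5.63 and 26.3% ± 5.08 of the summed level of the 8 beta chains (SD, n = 19). Itgb3 had 20.0 ± 12.3 CPM per kb and Itgb2, the leukocyte chain, 14.5 ± 18.6 CPM per kb, and their order was not firm, since Itgb3 was above Itgb2 in 12 of 19 libraries. Itgb4, Itgb7 and Itgb8 had 4.92 ± 2.701, 4.34 ± 6.24 and 0.773 ± 0.565 CPM per kb. Itgb6, an epithelial chain, had 158 counts over all libraries, with 0.964 CPM at most in D-3 IR 15, and did not pass the filter on low counts.

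Of the alpha chains, Itga8 (chromosome 2, 12106632 to 12301922), which pairs with Itgb1, binds nephronectin and is known from smooth muscle, led at 103 ± 79.6 CPM per kb. Itga5, the fibronectin receptor chain, had 68.0 ± 48.7 CPM per kb, and Itga9, which binds tenascin and VCAM-1, 49.8 ± 36.0 CPM per kb. Itga8 was above Itga5 in 14 of 19 libraries and Itga5 above Itga9 in 13, so the order of these 3 differed between aortas. The laminin receptor chains Itga3 and Itga7 came next at 24.6 ± 11.9 and 20.0 ± 8.55 CPM per kb. Itgam had 16.1 ± 29.6 CPM per kb, above Itgav in only 10 of 19 libraries. This level was scaled to 1574 of the 5024 exon bases of Itgam, so its place among the alpha chains is uncertain. Itgav, Itga1 and Itga6 had means of 9.01, 6.25 and 5.81 CPM per kb, and the other alpha chains 0.371 to 2.53 CPM per kb, except Itgad, a chain of macrophages, which had 6 counts in 4 libraries and did not pass the filter. Of the focal adhesion proteins, the actin crosslinkers Flna and Actn1 led at 325 ± 186 and 175 ± 102 CPM per kb. Ptk2, the focal adhesion kinase, and Tln2, the less common talin, were lowest at 4.82 ± 1.17 and 2.61 ± 2.03 CPM per kb.

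**Figure D1:**
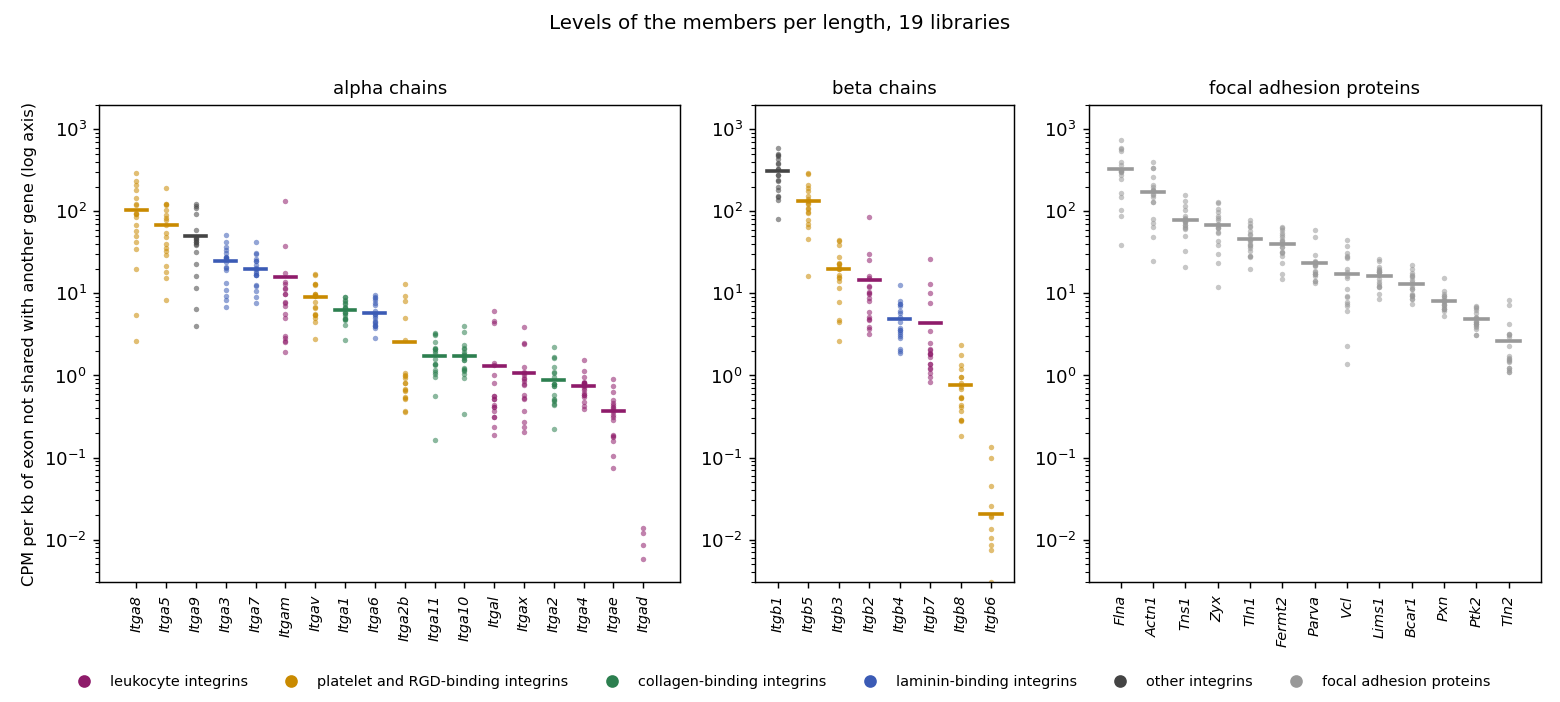
Level of 39 members in CPM per kb of exon not shared with another gene, on a log axis; each point is 1 of the 19 libraries, and Ilk is left out. Itgb1 (mean 308) and Itgb5 (133) led the beta chains, Itga8 (103) the alpha chains and Flna (325) the focal adhesion proteins, while Itgad and Itgb6 were near 0.

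Most leukocyte integrins were low in most aortas and high in few libraries, in D-3 IR and control often only in D-3 IR 10 and control 9. Itgb2 (chromosome 10, 77530252 to 77565708), shared by Itgal, Itgam, Itgax and Itgad, had 14.9, 27.2 and 77.2 CPM (lowest, median, highest) in D-3 IR libraries, 14.6, 37.95 and 92.3 CPM in D+1 IR, and 11.1, 30.7, 11.7, 9.86 and 261 CPM in control libraries 4, 5, 6, 8 and 9. The highest of each group were D-3 IR 10, D+1 IR 20 and control 9, and the groups overlapped. Itgam, which encodes CD11b of neutrophils, monocytes and macrophages, had 4.81, 12.1 and 20.3 CPM in D-3 IR libraries, 3.02, 15.6 and 60.1 CPM in D+1 IR, and 4.16, 18.6, 4.45, 4.04 and 209.9 CPM in control libraries. Control 9 was far above the other 4 controls, all of them within the range of D+1 IR. The 5 neutrophil markers summed to 2.43 to 83.7 CPM in D-3 IR, 7.64 to 68.9 CPM in D+1 IR and 0.956 to 914 CPM in control libraries, with control 9 highest and Ly6g at 0 in part of the libraries. The 6 macrophage markers, none at 0, summed to 256 to 1314, 388 to 2198 and 197 to 1522 CPM in D-3 IR, D+1 IR and control libraries. The sums were highest in D-3 IR 10, D+1 IR 20 and control 9, as Itgb2 was. In D-3 IR 10 the sum was mostly Lyz2 (1088 CPM, against 600 CPM in D-3 IR 14). Csf1r also exceeded its D-3 IR 14 value there (100 against 78.3 CPM). Cd68 (47.8 against 52.4 CPM), Adgre1 (20.1 against 39.4), Cd163 (11.6 against 42.1) and Mrc1 (46.5 against 94.9) fell below theirs. The match with Itgb2 in D-3 IR thus rests mainly on Lyz2. The part of neutrophils and macrophages in the integrin levels was not tested. In whole tissue, fewer cells of a type and less RNA per cell cannot be told apart.

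Itgal and Itgb7, known from lymphocytes, peaked in a partly different set of libraries. Itgal, the partner of Itgb2 in LFA-1, had 2.05, 3.67 and 40.5 CPM in D-3 IR libraries, 1.56, 3.72 and 30.4 CPM in D+1 IR, and 2.87, 2.68, 2.71, 1.23 and 28.9 CPM in control libraries. Itgb7 (chromosome 15, 102215995 to 102231944), which pairs with Itga4 for homing to the gut and with Itgae, had 2.98, 5.04 and 71.9 CPM in D-3 IR libraries, 2.34, 5.66 and 36.1 CPM in D+1 IR, and 3.43, 6.95, 4.62, 2.65 and 28.3 CPM in control libraries. D-3 IR 10, D+1 IR 3 and control 9 were the highest of their groups for both genes. The 4 B cell markers summed to 1.02 to 382 CPM in D-3 IR, 0.817 to 236 CPM in D+1 IR and 2.77 to 13.8 CPM in control libraries, highest in D-3 IR 10 and D+1 IR 3 and with Cd79a at 0 in D-3 IR 14. The 5 T and NK cell markers, none at 0, summed to 1.61 to 125, 1.41 to 65.1 and 2.28 to 4.46 CPM. No control library had more than 13.8 CPM of B cell or 4.46 CPM of T and NK cell markers. The part of lymphocytes in these levels was not tested.

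The remaining leukocyte chains had narrower ranges. Itgax, a chain of dendritic cells and macrophages, had 1.30 to 11.7 CPM in D-3 IR, 0.969 to 11.9 CPM in D+1 IR and 1.77 to 18.5 CPM in control libraries. Itga4, a receptor chain for VCAM-1 and fibronectin on lymphocytes and monocytes, had 7.53 to 19.8 CPM in D-3 IR, 4.95 to 12.3 CPM in D+1 IR and 5.49 to 10.7 CPM in control libraries. Itgae, a chain of tissue-resident T cells and some dendritic cells, was the lowest of the 7 that passed the filter at 0.339 to 4.18 CPM over the 19 libraries.

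Itga2b (chromosome 11, 102453297 to 102470122), which forms the platelet fibrinogen receptor with Itgb3, was distributed only in part like a leukocyte chain. It had 2.92, 3.63 and 50.6 CPM in D-3 IR libraries, 2.84, 5.35 and 27.1 CPM in D+1 IR, and 3.68, 5.60, 1.98, 2.03 and 72.1 CPM in control libraries. It was high in D-3 IR 10, D-3 IR 16, D+1 IR 3 and control 9, and the groups overlapped. D-3 IR 16 had its highest D-3 IR value, and no leukocyte chain had its highest D-3 IR value there. The 7 platelet markers, of which 5 were at 0 in some library, summed to 11.7 to 115 CPM in D-3 IR, 12.7 to 222 CPM in D+1 IR and 6.17 to 365 CPM in control libraries. D-3 IR 16 and control 9 had the highest sums of their groups, but D+1 IR 3, with the highest Itga2b of D+1 IR, had the lowest platelet sum of its group. The highest sum of D+1 IR, in D+1 IR 20, was mostly Pf4 (212 CPM), with 6.81 CPM of Ppbp and 1.19 CPM of Gp9. Ppbp was higher in D+1 IR 17 (24.9 CPM), and D-3 IR 16 had 13.4 CPM of Gp9, so the D+1 IR sums rest mainly on Pf4.

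**Figure D2:**
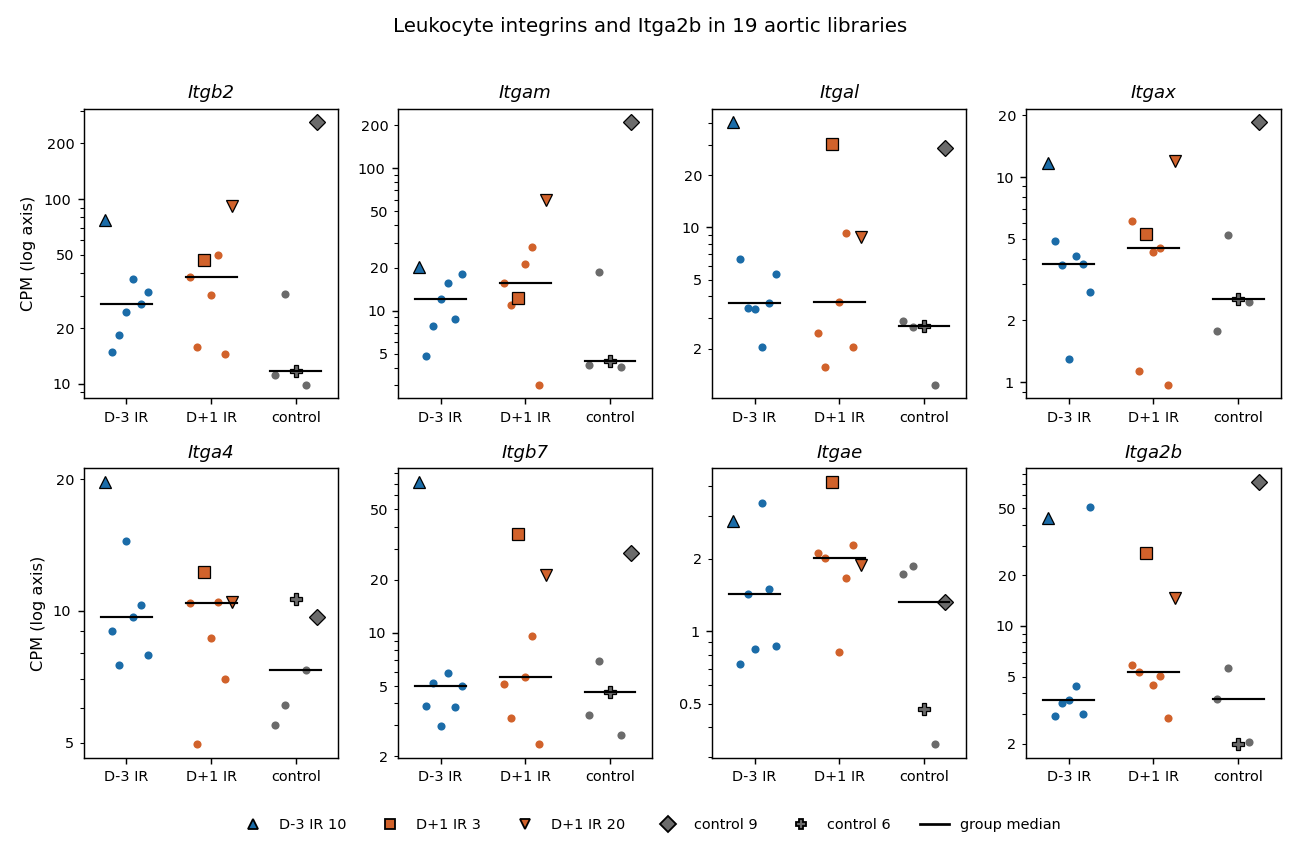
CPM on a log axis of the 7 leukocyte integrins that passed the filter and of Itga2b, by group; each point is a library, each line a group median, and 5 libraries are marked by symbol. D-3 IR 10, D+1 IR 3 or D+1 IR 20 and control 9 lay on top of their groups in most panels, with 261 CPM of Itgb2 in control 9.

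The promoter of Itgam is shown because this gene had the highest level of the leukocyte alpha chains. RefSeq gave a window from 250 bases before to 50 after the start for 28 of the 40 members. That of Itgam (chr7:128062390-128062689, + strand, GRCm38.p6) held 3 copies of GAGGAA, a core that the myeloid factor PU.1 binds, searched on both strands and written in capitals as it or its reverse complement.
Itgam: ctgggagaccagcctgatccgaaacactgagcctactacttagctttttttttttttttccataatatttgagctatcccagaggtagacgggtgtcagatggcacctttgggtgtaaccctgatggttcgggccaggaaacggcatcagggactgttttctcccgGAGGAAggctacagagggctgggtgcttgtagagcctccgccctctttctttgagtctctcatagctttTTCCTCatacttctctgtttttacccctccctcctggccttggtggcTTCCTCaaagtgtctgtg
The motif lay in 11 of the 28 members with a window (39.3%) and in 31.3% of 27025 genes.

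The most abundant integrins of muscle and matrix, Itga8, Itga5, Itga9, Itgb1 and Itgb5, were lowest in D+1 IR 3. Itga8 had 296, 665 and 1631 CPM in D-3 IR libraries, 18.6, 242 and 861 CPM in D+1 IR, and 349.5, 478, 2032, 1013 and 649 CPM in control libraries. Its 109-fold range between D+1 IR 3 and control 6 was the widest of the 38 members that passed the filter. Itga9 (chromosome 9, 118606690 to 118901003) had 249, 451 and 893 CPM in D-3 IR libraries, 31.1, 127 and 366 CPM in D+1 IR, and 174, 329, 945, 373 and 354 CPM in control libraries. Both genes had their lowest group median in D+1 IR, and each group overlapped the others. Of the summed alpha chains per kb, Itga8 was 32.5% ± 7.49 in D-3 IR (SD, n = 7), 21.9% ± 15.3 in D+1 IR (n = 7) and 34.7% ± 12.1 in control libraries (n = 5), and Itga9 was 18.3% ± 2.49, 10.5% ± 3.72 and 15.4% ± 3.72 in the same order. Such shares depend in part on the uncertain level of Itgam, which was 31.4% of the sum in D+1 IR 20.

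The beta chains of the wall were spread alike. Itgb1 had 817, 1527 and 2065 CPM in D-3 IR libraries, 334, 745 and 1569 CPM in D+1 IR, and 611, 1126, 2395, 1147 and 1782 CPM in control libraries. Itgb5 (chromosome 16, 33829665 to 33949338), a partner of Itgav, had 339, 544 and 1012 CPM in D-3 IR libraries, 57.9, 250.1 and 437 CPM in D+1 IR, and 277, 503, 1046, 451 and 622 CPM in control libraries. Itgb3 (chromosome 11, 104608000 to 104670476), which pairs with Itgav and with Itga2b, had 90.0, 136 and 258 CPM in D-3 IR libraries, 15.7, 46.5 and 137 CPM in D+1 IR, and 68.6, 118, 265, 126 and 136 CPM in control libraries. For Itgb3, 5 of the 7 D+1 IR libraries lay below every D-3 IR library, and D+1 IR 1, 2 and 3 were the lowest of all at 27.6, 26.2 and 15.7 CPM.

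The alpha chains that bind RGD sequences differed among themselves. Itgav had 54.7, 98.9 and 170.4 CPM in D-3 IR libraries, 27.9, 56.8 and 99.96 CPM in D+1 IR, and 54.6, 69.6, 175, 94.8 and 128 CPM in control libraries. Itga5 had 178 to 612 CPM in D-3 IR, 40.7 to 954 CPM in D+1 IR and 76.3 to 591 CPM in control libraries, so a D+1 IR library, number 18, had the highest value of all, and there Itga5 was 46.7% of the alpha chains per kb. Itgb8, a partner of Itgav, had 3.08 to 14.8, 2.01 to 19.7 and 4.88 to 26.0 CPM in D-3 IR, D+1 IR and control libraries, with its highest values in D+1 IR 17 and control 8.

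Of the collagen receptor chains, Itga1, known from smooth muscle, had a narrow range of 86.9 to 161 CPM in D-3 IR, 48.9 to 151 CPM in D+1 IR and 86.3 to 162 CPM in control libraries. Itga2, Itga10 and Itga11, known from platelets and epithelia, cartilage and fibroblasts, had at most 16.9 CPM in any library. D+1 IR 3 had the lowest Itga10 (1.17 CPM) and Itga11 (0.829 CPM) of the 19 libraries and also the lowest sum of the 6 fibroblast markers, 886 CPM. Of the laminin receptor chains, Itga3 had 118 to 242, 39.2 to 156 and 77.6 to 297 CPM, and Itga7, known from muscle, 137 to 249, 61.9 to 201 and 99.7 to 341 CPM, in D-3 IR, D+1 IR and control libraries. Itga6 had 25.6 to 86.1 CPM and its partner Itgb4, known from epithelia and nerve sheaths, 12.2 to 81.4 CPM over the 19 libraries.

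Most focal adhesion proteins went the same way as the wall integrins. Flna, filamin A (chromosome X, 74223461 to 74249820), had 2349, 3021 and 5555 CPM in D-3 IR libraries, 370.5, 1562 and 3724 CPM in D+1 IR, and 1397, 2907, 7000, 3449 and 2814 CPM in control libraries. Actn1, an alpha-actinin, had 656, 935 and 1721 CPM in D-3 IR libraries, 127, 414 and 1009 CPM in D+1 IR, and 372, 909, 2027, 769 and 1074 CPM in control libraries. Ptk2 (chromosome 15, 73205102 to 73423280) had 47.1, 67.5 and 80.9 CPM in D-3 IR libraries, 37.0, 46.2 and 58.7 CPM in D+1 IR, and 49.6, 49.4, 83.1, 50.3 and 58.6 CPM in control libraries, a 2.25-fold range that was the narrowest of the members. Likewise spread were Tln1, the main talin, Tns1, which binds actin, Fermt2, the kindlin of muscle, Lims1, a partner of Ilk, and Zyx. They were lowest in D+1 IR 3 or D+1 IR 20 and highest in control 6, D-3 IR 11 or D-3 IR 16. Pxn, the scaffold paxillin, and Bcar1, an adaptor of the focal adhesion kinase, varied little, by 2.89- and 2.95-fold. Vcl had 37.4 to 272, 8.36 to 167 and 56.0 to 229 CPM in D-3 IR, D+1 IR and control libraries, lowest in D+1 IR 20. By the sum of its strand-specific counts, which also hold reads of Ap3m1, D+1 IR 3 was lowest at 48.6 CPM and D+1 IR 20 next at 67.2 CPM.

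Tln2 and Parva, a parvin that binds Ilk, had another pattern. Tln2 had 132 CPM in D+1 IR 17 and 153 CPM in control 8, and at most 77.7 CPM in the other libraries. Parva had 502 and 596 CPM in the same libraries and at most 301 CPM in the others. These were the libraries with the highest sympathetic and adrenal markers, whose part in the Tln2 and Parva values was not tested.

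**Figure D3:**
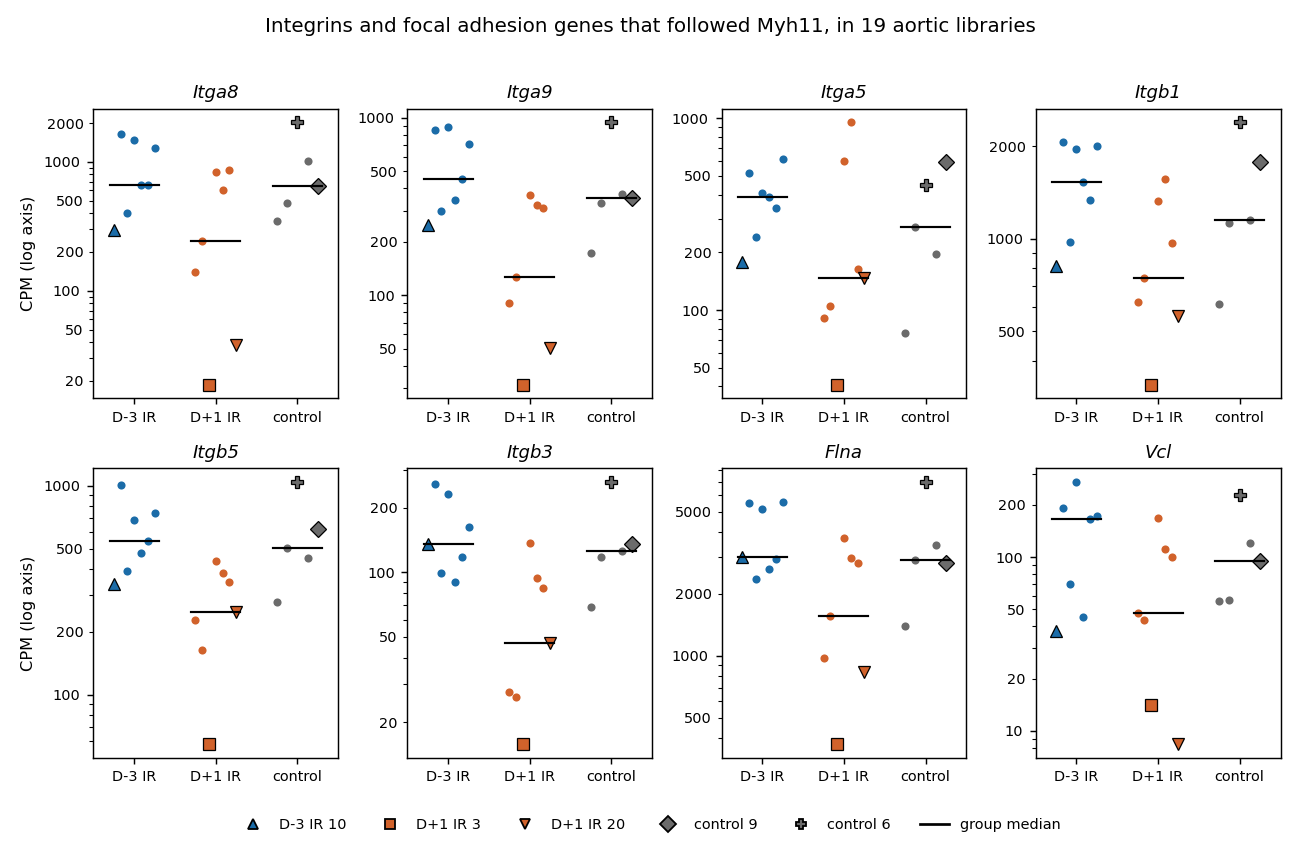
CPM on a log axis of 6 integrins and 2 focal adhesion genes, by group; each point is a library, each line a group median, and 5 libraries are marked by symbol. D+1 IR 3 was lowest in 7 panels and D+1 IR 20 in that of Vcl (there D+1 IR 3 was lowest by strand-specific counts), control 6 was highest in 6 of the 8, and the groups overlapped in each.

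Windows of Vcl and Fermt2 are shown because each held a CArG box, the element that serum response factor binds in many smooth muscle genes. That of Vcl is chr14:20929148-20929447 on the + strand and that of Fermt2 chr14:45530016-45530315 on the - strand of GRCm38.p6, with the box in capitals.
Vcl: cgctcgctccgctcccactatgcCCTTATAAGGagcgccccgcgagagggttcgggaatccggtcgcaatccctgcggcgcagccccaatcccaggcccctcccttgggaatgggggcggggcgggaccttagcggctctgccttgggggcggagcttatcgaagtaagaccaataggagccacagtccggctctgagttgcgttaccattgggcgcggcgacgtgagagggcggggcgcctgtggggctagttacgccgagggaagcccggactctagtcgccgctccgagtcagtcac
Fermt2: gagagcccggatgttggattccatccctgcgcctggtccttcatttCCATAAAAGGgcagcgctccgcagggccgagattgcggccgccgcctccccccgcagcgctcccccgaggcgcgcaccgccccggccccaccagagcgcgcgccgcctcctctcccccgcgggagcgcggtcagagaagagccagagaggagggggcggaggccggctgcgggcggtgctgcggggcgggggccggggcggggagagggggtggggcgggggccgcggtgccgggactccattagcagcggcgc
The box, searched on both strands, was in 3 of the 28 members with a window (10.7%), the third being Itgb6, and in 1.81% of 27025 genes.

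To tell leukocyte from muscle and matrix integrins, the log2 CPM of each of the 38 members that passed the filter was correlated over the 19 libraries with 8 genes that mark cell types. Of 304 pairs, 47 passed at an adjusted p of 0.05 (Pearson's r, two-sided permutation test with 100000 resamples, Benjamini-Hochberg over the 304 pairs), 23 of them with Myh11, the smooth muscle myosin, and 9 with Ptprc, which encodes the leukocyte antigen CD45. The median r of the members was 0.71 with Myh11 and -0.27 with Ptprc, against -0.01 and -0.05 over all genes. An r of at least 0.7 with Myh11 was found for 50% of members and 9.81% of 17616 genes, and with Ptprc for 15.8% and 3.33%. Ptprc and Myh11 had an r of -0.54 with each other. All these points share the 19 libraries, their tissue makeup and a scaling to 1 total, so the correlations describe which genes varied together across aortas.

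Of the 7 leukocyte integrins, 6 went with Ptprc. Itgb7 had r = 0.96 and rho = 0.88 (permutation adjusted p = 0.000179 and 0.000276), and r = 0.93 without D+1 IR 3 and D-3 IR 10, the libraries farthest from the median of Ptprc. Itgb2 had r = 0.88 and rho = 0.95, with r = 0.97 without those libraries. Itgal had r = 0.89 and rho = 0.71 (0.79 without them), Itgax r = 0.81 and rho = 0.84 (0.85), and Itgam r = 0.72 and rho = 0.81 (0.94). Itga4 had r = 0.67 and rho = 0.66, and its r of 0.46 without them shows that it rested in part on these libraries. With each group's mean taken out, r of the 6 was 0.70 to 0.97, and without D+1 IR 1, 2 and 3 it was 0.64 to 0.97. Itgae, with r = 0.54, did not pass. Itga2b, placed with the RGD-binding chains by its partner, had r = 0.80 and rho = 0.75 with Ptprc (0.71 without the farthest libraries). With the platelet marker Pf4, Itga2b had r = 0.57 and rho = 0.69 (permutation adjusted p = 0.0614 for r and 0.0124 for rho). Itgam and Itgb2 also went with Pf4, at r = 0.87 and 0.81. Pf4 did not always go with the other platelet markers. D-3 IR 14 had 43.6 CPM of Pf4 and 0.619 CPM of Gp9, whereas D-3 IR 16 had 37.2 and 13.4 CPM. Whether the values with Pf4 reflect platelets was not tested.

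The wall integrins and the adhesion proteins went with Myh11. Itga8 had r = 0.96 and rho = 0.89, and r = 0.91 without D+1 IR 20 and D+1 IR 3, the libraries farthest from the median of Myh11, and 0.94 with the group means taken out. Itga9 had r = 0.95 and rho = 0.87 (0.93 and 0.93 in the same checks), and Flna r = 0.94 and rho = 0.98 (0.97 and 0.91). Fermt2 and Vcl had r = 0.94 and 0.92 (rho = 0.86 and 0.85), falling to 0.88 and 0.79 without those libraries. In all, 5 of 7 platelet and RGD-binding, 2 of 4 collagen-binding, 2 of 4 laminin-binding and 2 of 2 other integrins and 11 of 14 focal adhesion proteins passed with Myh11 in the positive direction. Of these 22, Itga1 rested on the farthest libraries (r = 0.74, rho = 0.56, and r = 0.38 without them). The member that passed with Myh11 at a negative r was Itgae (r = -0.63). Itga1 and Itga8 passed with Ptprc at a negative r (-0.66 and -0.60).

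A few members went with other tissues. Itga6 went with the endothelial gene Cdh5 (r = 0.89, rho = 0.91, 0.87 without D+1 IR 2 and control 6, and 0.89 with group means out) and less with the adipocyte gene Plin1 (r = 0.64), and Cdh5 and Plin1 had an r of 0.79. Tln2 (r = 0.83), Itgb8 (0.78), Itga2 (0.71) and Itgb4 (0.68) went with Th, the first enzyme of catecholamine synthesis in sympathetic neurons and adrenal medulla, and kept 0.60 to 0.85 without D+1 IR 2 and control 6. Itga11 passed with the fibroblast gene Pdgfra (r = 0.61), but rho was 0.31 and r was 0.16 without D+1 IR 3 and D-3 IR 10, so it rested on those. Pxn passed with Pf4 (r = 0.71, rho = 0.61), but r was 0.44 without the libraries farthest from the median of Pf4. No member passed with Ckm of skeletal muscle.

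**Figure D4:**
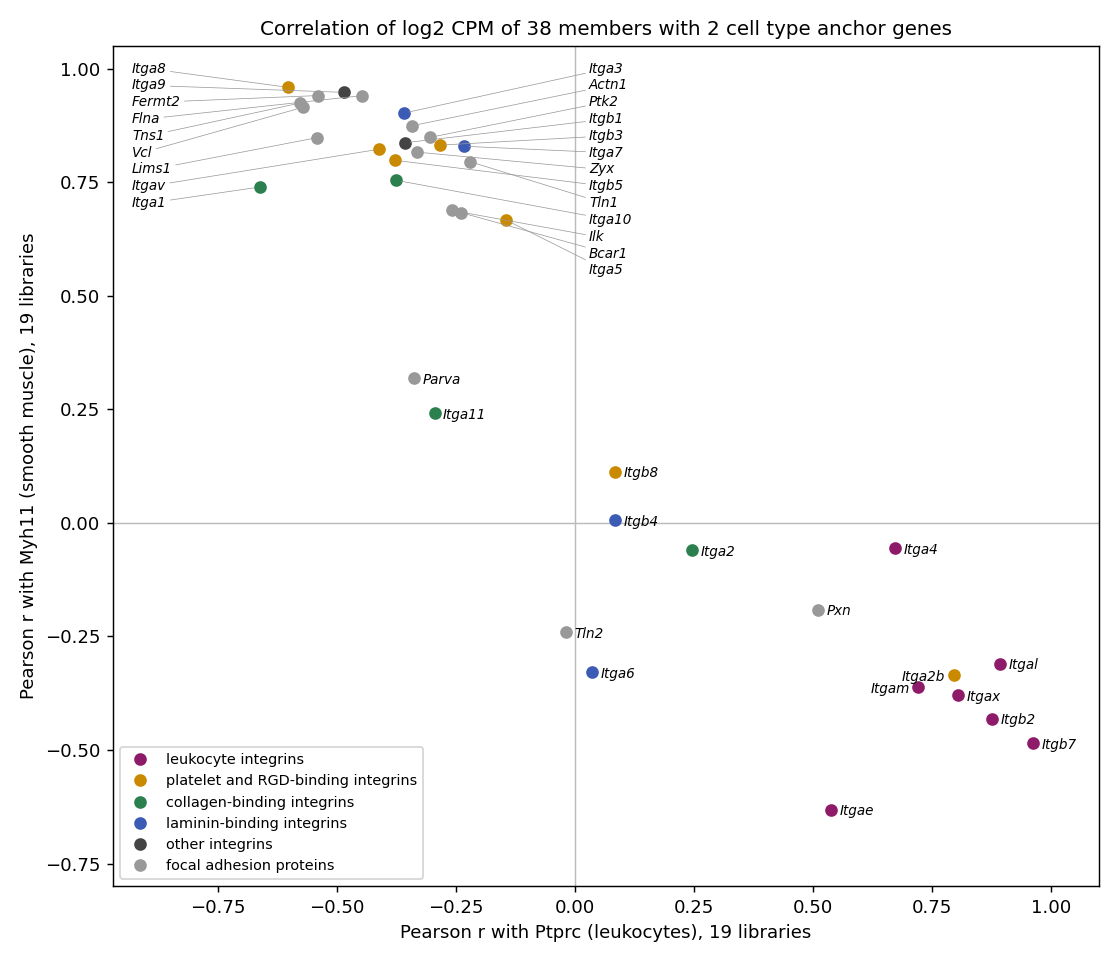
Pearson's r over 19 libraries of each of the 38 members with Ptprc (x axis) and with Myh11 (y axis), colored by list. The leukocyte chains other than Itgae lay at an r of 0.67 to 0.96 with Ptprc, and Itga8, Itga9, Flna and Fermt2 at 0.94 to 0.96 with Myh11.

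Between the irradiated groups, the wall integrins had higher mean levels in D-3 IR, but none passed the test. The quasi-likelihood F-test of edgeR (two-sided) called 0 of the 38 members at an adjusted p under 0.05 and 0 of all 17617 genes tested (0%). At an unadjusted p under 0.05, 13 of the 38 members were past the threshold, all with a positive log2 fold change, against 11.5% of all genes and 6.71% in the positive direction. The median log2 fold change of the members was 0.43, with 31 positive and 7 negative, against -0.04 over all genes, of which 45.4% were positive. DESeq2 called 0 members and 56 genes (0.318%), and limma voom with sample quality weights called 15 members and 2298 genes (13%). Without D+1 IR 1, 2 and 3, 3 members had an unadjusted p under 0.05, against 3.51% of all genes, and the median was 0.32. Of these, Ptk2 and Itgb5 were among the 13, and Itga1 was not.

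By list, the median log2 fold change (D-3 IR over D+1 IR) was -0.09 for the leukocyte integrins (3 of 7 positive, 0 at an unadjusted p under 0.05) and 0.78 for the platelet and RGD-binding integrins (7 of 7 positive, 3 at an unadjusted p under 0.05). The value of 0.78 is that of Itga2b, which was 0.28 without D-3 IR 10 and 0.13 without D-3 IR 16, and 2 of 7 D-3 IR libraries lay above the D+1 IR median of Itga2b. It was 0.28 for the collagen-binding (4 of 4 positive), 0.43 for the laminin-binding (4 of 4) and 1.17 for the other integrins (2 of 2), and 0.54 for the focal adhesion proteins (11 of 14). Without D+1 IR 1, 2 and 3 these medians were 0.00, 0.66, 0.32, 0.35, 0.76 and 0.27. Beside them, the 7 smooth muscle markers had a median sum of 14105 CPM in D-3 IR against 6815 CPM in D+1 IR libraries, and the 4 adipocyte markers one of 1743 against 5964 CPM. Their part in the integrin values was not tested.

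Itga9 averaged 543 ± 271 CPM in D-3 IR against 186 ± 142 CPM in D+1 IR libraries (SD, n = 7 each), a log2 fold change of 1.55 (SE 0.53, edgeR adjusted p = 0.409). Itgb3 averaged 157 ± 65.6 and 61.8 ± 44.9 CPM (log2 fold change 1.34, SE 0.43) and Itgb5 599 ± 234 and 267 ± 132 CPM (1.17, SE 0.38), both with an edgeR adjusted p of 0.409. Without D+1 IR 1, 2 and 3 the log2 fold changes of these 3 were 1.06, 0.80 and 0.76. Itgb1 averaged 1524 ± 507 CPM in D-3 IR against 875 ± 442 CPM in D+1 IR libraries (0.80, SE 0.35, edgeR adjusted p = 0.421), and Itgav 107 ± 40.4 and 65.5 ± 27.6 CPM (0.71, SE 0.32, edgeR adjusted p = 0.423). The laminin receptor chains Itga3 (0.93, SE 0.33) and Itga7 (0.64, SE 0.29) and the collagen receptor chain Itga10 (0.86, SE 0.32) had edgeR adjusted p values of 0.409, 0.43 and 0.409.

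Of the focal adhesion proteins, Ptk2 had the smallest error. It averaged 65.9 ± 12.6 CPM in D-3 IR against 47.0 ± 8.30 CPM in D+1 IR libraries, a log2 fold change of 0.49 (SE 0.16, edgeR adjusted p = 0.409) that was 0.43 without D+1 IR 1, 2 and 3. Actn1 averaged 1156 ± 433 and 518 ± 325 CPM (1.16, SE 0.42, edgeR adjusted p = 0.409), and Tln1 503 ± 134 and 332 ± 108 CPM (0.60, SE 0.25, edgeR adjusted p = 0.421). Itga1 (0.30, SE 0.22), Itga11 (0.26, SE 0.45) and Itgb4 (0.21, SE 0.40) had unadjusted p values of 0.184, 0.576 and 0.60 from edgeR, and Itgb4 was -0.17 without D-3 IR 10. The leukocyte chains nearest to the threshold were Itga4 (0.29, SE 0.25), Itgam (-0.79, SE 0.80) and Itgae (-0.35, SE 0.45), with edgeR adjusted p values of 0.635, 0.69 and 0.753.

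**Figure D5:**
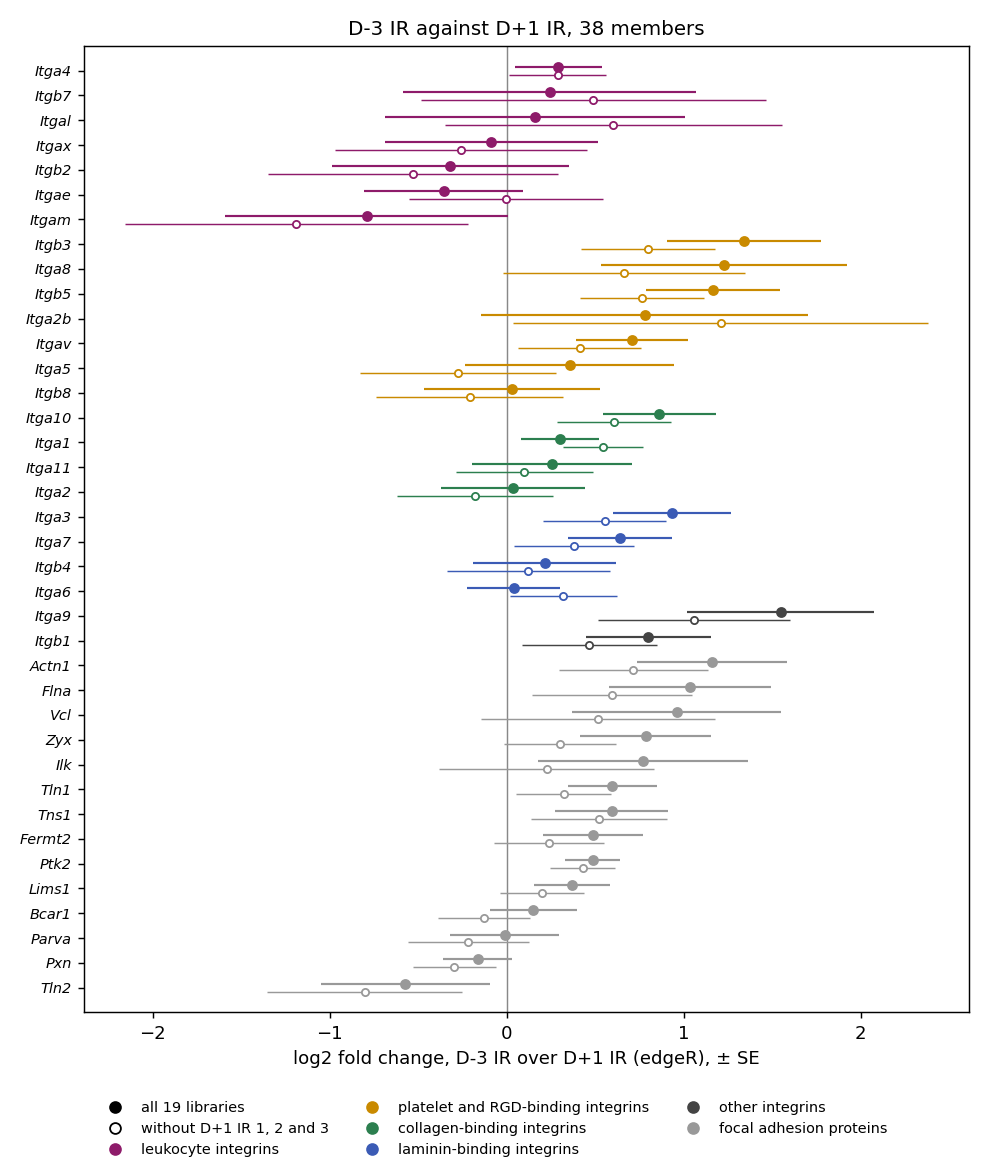
Log2 fold change of the 38 members in D-3 IR over D+1 IR from edgeR, with bars of 1 SE; filled points use all 19 libraries and open points leave out D+1 IR 1, 2 and 3. Of the filled points 31 are positive, with Itga9 (1.55) and Itgb3 (1.34) farthest, and most open points lie nearer to 0.

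In D-3 IR over control, edgeR called 0 of the 38 members and 0 of 17617 genes (0%), and 1 member, Itgam, had an unadjusted p under 0.05, with a negative log2 fold change, against 1.32% of all genes and 0.817% in the negative direction. The members had a median log2 fold change of 0.08 (27 positive, 11 negative), against -0.03 over all genes. Itgam averaged 12.5 ± 5.71 CPM in D-3 IR (SD, n = 7) and 48.2 ± 90.6 CPM in control libraries (SD, n = 5), a log2 fold change of -1.95 (SE 0.87, edgeR adjusted p = 1.00) that rested on control 9 and was 0.68 without it. Itga4 averaged 11.2 ± 4.39 and 7.86 ± 2.25 CPM (0.52, SE 0.27), and Tln2, high in control 8, had a log2 fold change of -0.78 (SE 0.52) that was -0.08 without it, both with an edgeR adjusted p of 1.00. The list medians lay between -0.02 (collagen-binding integrins) and 0.27 (leukocyte integrins).

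In D+1 IR over control, edgeR called 0 of the 38 members and 0 of 17617 genes (0%). At an unadjusted p under 0.05 there were 6 members, Itga10, Itgb5, Itga3, Itgb3, Itga9 and Actn1, all with a negative log2 fold change, against 7.11% of all genes and 4.84% in the negative direction. DESeq2 called 0 members and 2 genes (0.0114%). The median of the members was -0.48 (6 positive, 32 negative), against -0.04 over all genes. Itga10 averaged 3.84 ± 1.48 CPM in D+1 IR (SD, n = 7) and 7.63 ± 3.72 CPM in control libraries (SD, n = 5), a log2 fold change of -0.99 (SE 0.34). Itgb5 averaged 267 ± 132 and 579.7 ± 289 CPM (-1.12, SE 0.40) and Itga3 88.3 ± 49.4 and 174 ± 78.9 CPM (-0.98, SE 0.36), each with an edgeR adjusted p of 0.644. Without D+1 IR 1, 2 and 3 these log2 fold changes were -0.72, -0.70 and -0.58, no member had an unadjusted p under 0.05, against 1.52% of all genes, and the median was -0.29. All 7 RGD-binding chains that passed the filter and all 14 focal adhesion proteins had a negative log2 fold change (medians -0.88 and -0.44), and the leukocyte chains had a median of 0.11. The value of -0.88 is that of Itga2b, which rested on control 9 and was 1.48 without it, and 6 of 7 D+1 IR libraries lay above the control median of Itga2b. Among the focal adhesion proteins, 6 of 7 D+1 IR libraries lay above the control median of Pxn and 5 of 7 above that of Tln2. The highest control values of these genes were 126 CPM of Pxn in control 9 and 153 CPM of Tln2 in control 8. D-3 IR and control are each set against the same 7 D+1 IR libraries, so these 2 comparisons share those samples. No member separated any pair of groups without overlap, against 0.159% of all genes in D-3 IR over D+1 IR, 0.0114% in D-3 IR over control and 0.136% in D+1 IR over control, so a count of 0 among 38 is near the share of all genes. Tested for a difference between any of the 3 groups, the files gave 0 called members with edgeR (0% of genes), 7 at an unadjusted p under 0.05 against 6.65% of all genes, and 0 called members with DESeq2 (0.131% of genes).

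The leukocyte chains depended on the libraries that stood apart. Without D-3 IR 10, D+1 IR 3 and control 9, a choice made after seeing the data, the 7 chains had a median of -0.49 (log2 fold change) in D-3 IR over D+1 IR (1 positive), 0.42 in D-3 IR over control (7 positive) and 0.84 in D+1 IR over control (7 positive). In the last of these Itgb2 and Itgam had an unadjusted p under 0.05, against 6.37% of all genes, and edgeR again called 0 genes in each.

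Of 40 other genes of the integrin adhesome, 39 passed the filter. Their median log2 fold change (D-3 IR over D+1 IR) was 0.34 (30 positive, 9 negative), with 0 called by edgeR and 16 at an unadjusted p under 0.05, 15 of these positive, beside 11.5% of all genes and 6.71% in the positive direction. Without D+1 IR 1, 2 and 3 the median was 0.16 and 3 were past that threshold, beside 3.51% of all genes. Arhgef7, an exchange factor for Rac at adhesions, averaged 135 ± 22.3 CPM in D-3 IR against 92.7 ± 15.3 CPM in D+1 IR libraries (0.55, SE 0.17), and Nexn, an actin-binding protein of muscle, 151 ± 51.4 and 69.5 ± 40.5 CPM (1.12, SE 0.39), both with an edgeR adjusted p of 0.409. Itgb1bp2, melusin of striated muscle, had a log2 fold change of 3.48 (SE 1.19, edgeR adjusted p = 0.409), with 10.1 CPM in D-3 IR 10, the library highest in skeletal muscle markers, and it was 2.37 without that library.

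Of 32 genes of integrin ligands, 31 passed the filter, and their median in the same comparison was 0.46 on the log2 scale (23 positive, 8 negative). edgeR called 0 of them, and 10 had an unadjusted p under 0.05, all positive, where all genes gave 11.5% and 6.71% positive. Without D+1 IR 1, 2 and 3 the median was 0.23, with 3 past that threshold (3.51% of all genes). Mfge8, a secreted ligand of the Itgav receptors, averaged 1235 ± 368 CPM in D-3 IR, 564 ± 221 CPM in D+1 IR and 1091 ± 565 CPM in control libraries, with a log2 fold change of 1.13 (SE 0.32) between the irradiated groups. Fbln5, an elastic fiber protein with an RGD sequence, averaged 760.3 ± 276, 269.8 ± 169 and 615 ± 275 CPM (1.49, SE 0.43), and Col4a2, a basement membrane collagen, 1777 ± 589.5, 884 ± 418 and 1492 ± 767 CPM (1.01, SE 0.34). For these 3 the edgeR adjusted p was 0.409. In D-3 IR over control the median was 0.18 for the ligands and 0.05 for the integrins, again as log2 fold changes.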

How the data were processed

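The members and gene lists were chosen with earlier results of these data known. The authors aligned reads to GRCm38 with STAR 2.7.9a after FastQC and deposited raw counts per gene for 19 libraries, unstranded and by strand, with a joined table equal to the unstranded counts at all 773262 values. Of 55414 gene IDs, 52081 were in GENCODE M21, used here for coordinates and overlaps. In the count files 52044 of these had a later version, so genes were counted with a later annotation release. Overlaps in that release may differ. In genes lay 67.5% to 78.0% of reads, and 3.70% to 4.39% were ambiguous. No column of per-sample values was without a sample (0).

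The unstranded counts were tested in edgeR 4.0.16 (R 4.3.3) with TMM factors, a design without intercept and quasi-likelihood F-tests, which the study's methods name. Chosen here were the default low-count filter for the groups (17617 of 35160 genes with a count), a fit over all 19 libraries without covariate, and Benjamini-Hochberg adjustment over all genes at 0.05; tests were two-sided. The common biological coefficient of variation was 0.591. CPM are TMM-normalized, and log2 CPM used a prior count of 2. The test was tried on simulated data. Correlations and their permutation tests used numpy 2.4.6, with ranks from scipy 1.17.1, and the smallest p that the resamples can give is 1e-05. Fold changes with errors are printed for the 3 members of each list with the smallest p in D-3 IR against D+1 IR, for the 3 with the smallest p of all members in each comparison with control, and for the 3 genes of each pathway list with the smallest p.

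Alternatives were DESeq2 1.42.0, the newer quasi-likelihood method of edgeR, voom of limma 3.58.1 with sample quality weights, RLE and upper-quartile factors, no or a stricter filter (CPM of 1 in 5 libraries), second-strand counts, only the groups compared, and fits without each library and without D+1 IR 1, 2 and 3. The sum of both strands, DESeq2's default filtering and fits without D-3 IR 10, D+1 IR 3 and control 9 were chosen after seeing the data. Promoter windows came from RefSeq (GRCm38.p6).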

Additional observations from a re-analysis of the deposited data

Results flagged for a closer look

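A library stood apart from the others of its group, on the log2 scale, in 8 of 114 combinations of member and group, and chance alone gives about 1 in 20. Itgal had 40.5 CPM in D-3 IR 10, where the other 6 libraries had 2.05 to 6.57 CPM, and 28.9 CPM in control 9, where the others had 1.23 to 2.87 CPM. Itgb7 had 71.9 CPM in D-3 IR 10, against 2.98 to 5.90 CPM in the others. Itga2b had 72.1 CPM in control 9, against 1.98 to 5.60 CPM. Itga10 had 1.17 CPM in D+1 IR 3, against 3.19 to 5.67 CPM, and Itga11 0.829 CPM in the same library, against 4.92 to 16.5 CPM. Parva had 502 CPM in D+1 IR 17, against 137 to 227 CPM. Pxn had 126 CPM in control 9, against 53.1 to 60.6 CPM. These 8 values came from 4 libraries, each already set apart by marker genes of other tissues or blood cells, whose part in them was not tested.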

How the results depend on the processing

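At an adjusted p under 0.05 the main count was 0 in every comparison, and no fit that left out 1 library changed it (0 to 0). DESeq2 called 56 genes in D-3 IR over D+1 IR (10 with its default filtering), 2 in D+1 IR over control and 23 among the 3 groups (2 and 23 with its default filtering), with 0 members called between D-3 IR and D+1 IR, limma voom called 2298 genes and 15 members in D-3 IR over D+1 IR, and edgeR's newer method called 1 gene among the 3 groups; the cause was not tested. Of the log2 fold changes under the alternatives, 906 kept direction and side of the threshold, 16 passed it under limma voom and 4 turned sign. Itgb4 in D-3 IR over D+1 IR was -0.031 without D-3 IR 10, D+1 IR 3 and control 9 and -0.17 to 0.38 over fits without 1 library, lowest without D-3 IR 10. Itgam in D-3 IR over control was 0.52 without these 3 and -2.25 to 0.68 over fits without 1 library, highest without control 9. The correlations passing numbered 47, from 41 to 57 without 1 library and 45 to 59 under the other settings. No paired analysis was possible because the groups have no replicate number in common. Which of spread between aortas and depth limits these comparisons more was not tested. Ilk, with 4 to 134 counts a library, is limited by its overlap with Taf10.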
